A study of Mus musculus with 15 samples.

Results

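Imprinted genes are expressed mainly from the maternal or mainly from the paternal copy, and 47 such genes of the mouse were examined here. All CpG rows of a percent methylation table that lay inside these genes or within 5 kb of them were taken, with gene positions from RefSeq on GRCm38. This gave 1129 of the table's 455836 CpG rows, a row being a cytosine on a given strand. The tissue was dentate gyrus, a region of the hippocampus, from 15 female C57BL/6JRj mice aged 7.5 months, measured by reduced representation bisulfite sequencing (RRBS), which reads short, CpG-rich restriction fragments after bisulfite conversion. The 5 standard mice had lived for 6 months in standard housing, the 5 enriched mice for 6 months in an enriched environment, and the 5 withdrawal mice for 3 months in enrichment and then 3 months in standard housing. All groups shared sex, strain and age, and the labels name no transgene or drug.

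At most imprinted clusters an imprinting control region is methylated on the chromosome from the mother or on that from the father, and this difference is set in the germ line and kept in body cells. A tissue sample with both copies then reads near 50% at such a region. In mice the zinc finger protein ZFP57 binds a methylated hexamer, TGCCGC, at many control regions and helps to protect them from demethylation in the early embryo. In the brain, imprinted genes include regulators of growth, of neuronal signalling and of neural stem cells, which the dentate gyrus retains in adult life. Methylation was read here from whole tissue, so a change in the make-up of cells and a change within cells cannot be told apart.

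Of the 47 genes, 37 had an entry in the RefSeq promoter table, which gives 250 bases before to 50 bases after a listed start on GRCm38.p6. The 7 promoter windows below were chosen to show starts that read near 50% beside starts that did not. They include both listed starts of Commd1, which share a gene and differ in level. Each is written 5′ to 3′ on its gene's strand, and capitals mark the CpG dinucleotides that had a row in the table.
Mcts2 (chr2:152686898-152687197, plus strand): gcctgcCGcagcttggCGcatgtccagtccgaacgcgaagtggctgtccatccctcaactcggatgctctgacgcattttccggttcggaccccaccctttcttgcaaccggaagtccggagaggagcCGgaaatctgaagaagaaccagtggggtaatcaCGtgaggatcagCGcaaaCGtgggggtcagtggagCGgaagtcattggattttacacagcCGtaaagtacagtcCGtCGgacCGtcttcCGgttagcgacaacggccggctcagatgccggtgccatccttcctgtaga
Zrsr1 (chr11:22971755-22972054, plus strand): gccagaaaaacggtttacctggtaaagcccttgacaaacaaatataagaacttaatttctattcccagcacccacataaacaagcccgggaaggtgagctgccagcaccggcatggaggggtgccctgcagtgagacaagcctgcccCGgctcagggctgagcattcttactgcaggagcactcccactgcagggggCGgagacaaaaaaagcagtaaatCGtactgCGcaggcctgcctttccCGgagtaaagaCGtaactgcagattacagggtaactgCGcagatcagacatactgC
Commd1, inner start (chr11:22972817-22973116, minus strand): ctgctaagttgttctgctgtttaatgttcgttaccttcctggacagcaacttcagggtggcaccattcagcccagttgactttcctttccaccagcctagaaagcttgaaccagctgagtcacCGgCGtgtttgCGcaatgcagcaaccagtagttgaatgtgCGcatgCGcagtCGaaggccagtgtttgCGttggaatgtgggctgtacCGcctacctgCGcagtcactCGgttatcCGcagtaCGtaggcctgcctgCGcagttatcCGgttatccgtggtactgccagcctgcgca
Commd1, outer start (chr11:22982235-22982534, minus strand): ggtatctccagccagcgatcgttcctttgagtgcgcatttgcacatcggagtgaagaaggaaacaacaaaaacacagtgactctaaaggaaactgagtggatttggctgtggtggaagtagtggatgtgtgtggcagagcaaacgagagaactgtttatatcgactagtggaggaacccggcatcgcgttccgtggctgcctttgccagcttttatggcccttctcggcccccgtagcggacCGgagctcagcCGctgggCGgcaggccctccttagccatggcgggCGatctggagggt
Plagl1 (chr10:13090582-13090881, plus strand): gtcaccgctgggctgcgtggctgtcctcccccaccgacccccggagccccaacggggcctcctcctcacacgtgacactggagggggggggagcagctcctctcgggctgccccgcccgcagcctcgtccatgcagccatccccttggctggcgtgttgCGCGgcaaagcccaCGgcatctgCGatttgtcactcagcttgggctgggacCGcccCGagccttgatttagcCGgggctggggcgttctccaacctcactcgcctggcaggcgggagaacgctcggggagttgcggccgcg
Grb10, start at the gene's end (chr11:12037371-12037670, minus strand): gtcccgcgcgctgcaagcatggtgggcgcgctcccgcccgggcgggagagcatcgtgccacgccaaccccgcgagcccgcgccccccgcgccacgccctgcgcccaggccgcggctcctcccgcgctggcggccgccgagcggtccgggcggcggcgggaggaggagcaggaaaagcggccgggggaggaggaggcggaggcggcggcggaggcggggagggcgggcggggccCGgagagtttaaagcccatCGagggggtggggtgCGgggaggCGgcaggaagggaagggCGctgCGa
Igf2r (chr17:12769657-12769956, minus strand): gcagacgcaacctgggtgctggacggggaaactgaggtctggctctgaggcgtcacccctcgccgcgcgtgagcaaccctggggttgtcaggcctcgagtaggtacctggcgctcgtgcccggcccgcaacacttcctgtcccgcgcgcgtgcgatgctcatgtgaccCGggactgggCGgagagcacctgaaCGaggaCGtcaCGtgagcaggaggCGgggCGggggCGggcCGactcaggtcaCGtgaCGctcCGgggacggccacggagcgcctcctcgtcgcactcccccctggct

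The Mcts2, Zrsr1, Plagl1 and inner Commd1 windows averaged 32.4%, 40.7%, 42.2% and 45.4% over their 14, 9, 7 and 15 rows. By contrast, the outer Commd1 window averaged 3.72% over 4 rows, the Grb10 window 1.87% over 6 rows and the Igf2r window 5.78% over 16 rows. TGCCGC, or GCGGCA on the other strand, was searched for on both strands. It occurred in the printed windows of Mcts2, Plagl1, Grb10 and outer Commd1, in 15 of 56 promoter windows of the members (26.8%) and in 3809 of 32817 windows in the whole table (11.6%). The CpG inside the match had a row in 5 genes. Its mean was 42.7% at Plagl1 (10 mice) and 19.8% at Mcts2 (10 mice), and 5.21% at outer Commd1 (11 mice), 1.76% at Grb10 (15 mice) and 1.75% at Zim1 (12 mice). A match is a description of the sequence and not a measured binding site. Over all members, 17 promoter windows held a row and 14 held at least 3, of which 9 averaged under 20% and 3 averaged 35 to 65% (Plagl1, Zrsr1 and inner Commd1).

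All 47 genes had rows, from 2 at Mest to 106 at Trappc9. Of the 1129 rows, 969 lay inside a gene and 160 in the flanks, and 153 belonged to more than 1 member because genes overlap (Mcts2 lies in H13, Nap1l5 in Herc3, Zrsr1 in Commd1 and Peg13 in Trappc9). A value in all 15 mice, called a complete site below, was present for 246 rows in 39 genes. The genes with none were Ascl2, Sgce, Mest, Copg2, Ndn, Ube3a, Impact and Klf14. The 27 rows in the last kb inside a gene's 5 kb flank had a median of 57.4% (range 0 to 98.5%), and the 14 rows in the first kb beyond it had a median of 33.4% (range 0 to 97.5%).

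The number of member rows with a value ran from 685 (60.7%) in standard mouse 1 to 1104 (97.8%) in withdrawal mouse 4. The deposited values carry no read counts, so the depth behind a percentage is unknown and the part of read sampling in the spread between mice was not tested. Where both strands of a CpG were measured (73 member pairs), their means over mice differed by a median of 4.44 percentage points. Within a mouse the strands could lie much further apart. In withdrawal mouse 3 a CpG in Zrsr1 read 18.2% on the plus strand (22972992) and 91.3% on the minus strand (22972993). Of 19 cell type markers, 3 had complete sites within 1 kb of a listed start, which averaged 2.29% at Prox1 (granule neurons), 1.63% at Slc1a3 (astrocytes) and 24.7% at P2ry12 (microglia). These values do not identify a tissue.

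Rows near 50%, defined as a mean of 35 to 65%, made up 223 of the 1129 member rows (19.8%), beside 31892 of all 455836 rows (7%). Among complete sites the numbers were 54 of 246 (22.0%) for the members and 8924 of 113832 (7.84%) overall. The overall mean was nearly the same in both sets, 39.0% for the member rows and 38.9% for all rows. A smaller share of member rows than of all rows was under 20% (42.2% beside 52.4%) or over 80% (23.6% beside 30.4%). A row near 50% was found in 32 of the 47 genes and a complete site near 50% in 14. These shares are descriptions, and no test was made over the gene list.

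**Figure D1:**
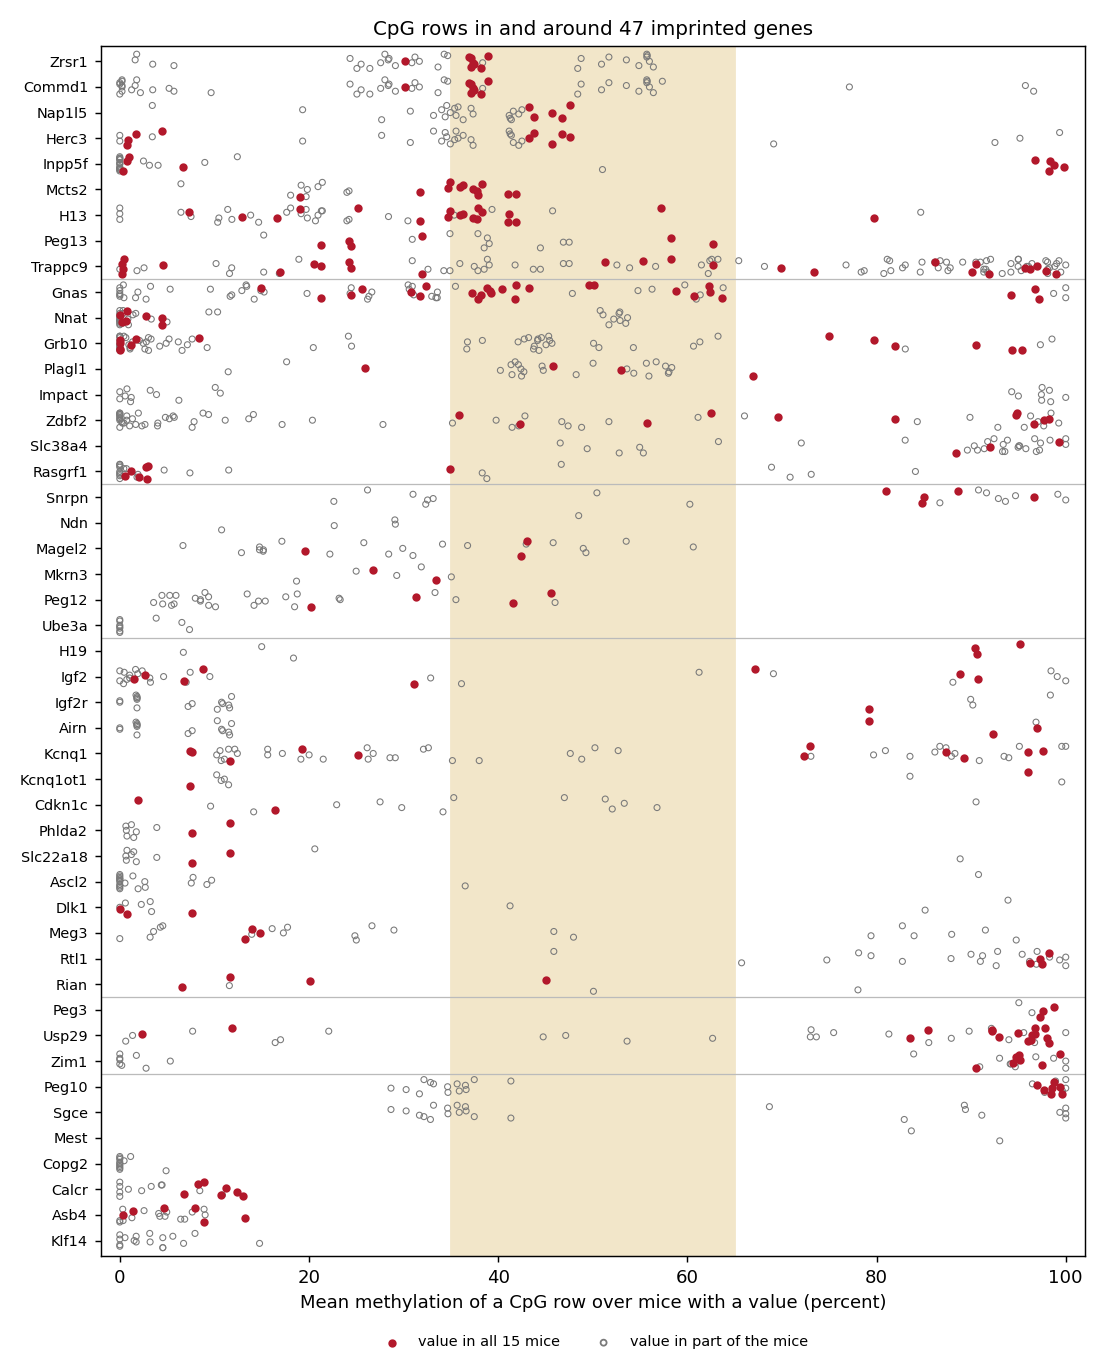
Mean methylation (percent) of each CpG row in or within 5 kb of each of the 47 imprinted genes, in order of role, with red points for rows with a value in all 15 mice and open points for the rest; the shaded band spans 35 to 65%. Most rows of Plagl1 (23 of 27) and Nap1l5 (17 of 26) lie in the band, and Grb10 has 22 of 73 rows in it and 39 under 20%. Copg2, Klf14 and Ube3a lie under 20%. Peg3, whose listed promoter window held no row, lies over 80%.

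For neighbouring sites the genome was divided into 1 kb windows, and a window was used when it held at least 3 complete sites. Of 39 such windows in the members, 8 (20.5%) had a mean of 35 to 65%, beside 1254 of all 15677 windows (8%) and 1159 of 15126 autosomal windows outside the members (7.66%). On the X chromosome, where females also silence a copy, 87 of 512 windows (17.0%) lay in that range. With every row used whether or not complete, it was 23 of 135 member windows (17.0%) and 4966 of 54972 overall (9.03%). The 8 windows with complete sites belonged to Nap1l5 in Herc3, Zrsr1 in Commd1, Mcts2 in H13, Magel2, Zdbf2 and, with 3 windows, Gnas. Just below the range were a window of Peg12 (34.7%) and a further window of Gnas (33.2%), and Peg13 had a window at 25.5%.

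The first role is that of small genes copied from RNA into an intron of a host gene. Nap1l5 encodes a protein of the nucleosome assembly family, is expressed from the paternal copy and lies in Herc3, a ubiquitin ligase gene. Its window on chromosome 6 held 5 complete sites (58906725 to 58906769, inside Nap1l5 and 379 bases downstream of its listed start) and averaged 45.4%. The standard mice measured 18.3%, 47.3%, 61.4%, 5.45% and 67.1%, the enriched mice 40.3%, 55.7%, 47.9%, 43.5% and 0%, and the withdrawal mice 50.7%, 66.9%, 55.4%, 60.4% and 60.7%. The withdrawal mice all lay above 50%, but the groups overlapped, with 2 standard mice above 60%. At the same window all 23 rows together averaged 37.5%, and a Herc3 window at 58832102 to 58832133, near the start of the host gene, averaged 1.11%.

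Zrsr1, a splicing factor gene expressed from the paternal copy, lies in Commd1, whose product acts in copper handling and endosomal sorting. The window at 22972925 to 22972993 on chromosome 11 held 8 complete sites, lies inside Zrsr1 and spans the region just upstream of the inner Commd1 start, whose sequence is printed above. It averaged 36.6%. In the standard mice it read 20.4%, 54.1%, 12.8%, 50.8% and 34.4%, in the enriched mice 36.9%, 29.2%, 4.65%, 50% and 63.0%, and in the withdrawal mice 8.41%, 16.7%, 81.9%, 37.1% and 49.5%. Each group held mice under 21% and mice near or above 50%, and the group means of 34.5% ± 18.2, 36.7% ± 22.1 and 38.7% ± 29.1 (SD, n = 5 each) differed by less than that spread. Next to it, 6 rows at 22971902 to 22972000 around the Zrsr1 start averaged 43.1%, and 12 rows around the outer Commd1 start averaged 2.28%.

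Mcts2, a copy of a translation regulator gene, is expressed from the paternal chromosome and lies in H13, which encodes a signal peptide peptidase. Its 12 complete sites at 152687026 to 152687149 on chromosome 2 lie in the printed promoter window and averaged 35.6%. The standard mice read 61.7%, 42.5%, 26.5%, 38.1% and 55.6%, the enriched mice 26%, 13.5%, 24.2%, 28.0% and 43.4%, and the withdrawal mice 15.2%, 46.0%, 34.7%, 37.0% and 41.0%. The standard mean was 44.9% ± 14.0 and the enriched mean 27.0% ± 10.7 (SD, n = 5 each), with 2 standard mice above all enriched mice and 3 inside their range. That difference is taken up with the housing comparisons below.

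Peg13, a noncoding RNA gene in an intron of Trappc9, a trafficking gene, had 4 complete sites at 72809784 to 72809821 on chromosome 15. They averaged 25.5% with an SD of 22.8 points over the 15 mice, the widest spread of the 39 member windows. Values ran from 0% in standard mouse 4 and enriched mouse 4 to 77.1% in enriched mouse 5. All 4 rows at 72810540 to 72810676 averaged 55.9%, and 8 rows in a further Trappc9 window averaged 59.7%. Inpp5f, a phosphoinositide phosphatase gene whose short imprinted transcript starts in an intron, had 1 row near 50% of 29, and its 19 rows at the main start averaged 0.579%.

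**Figure D2:**
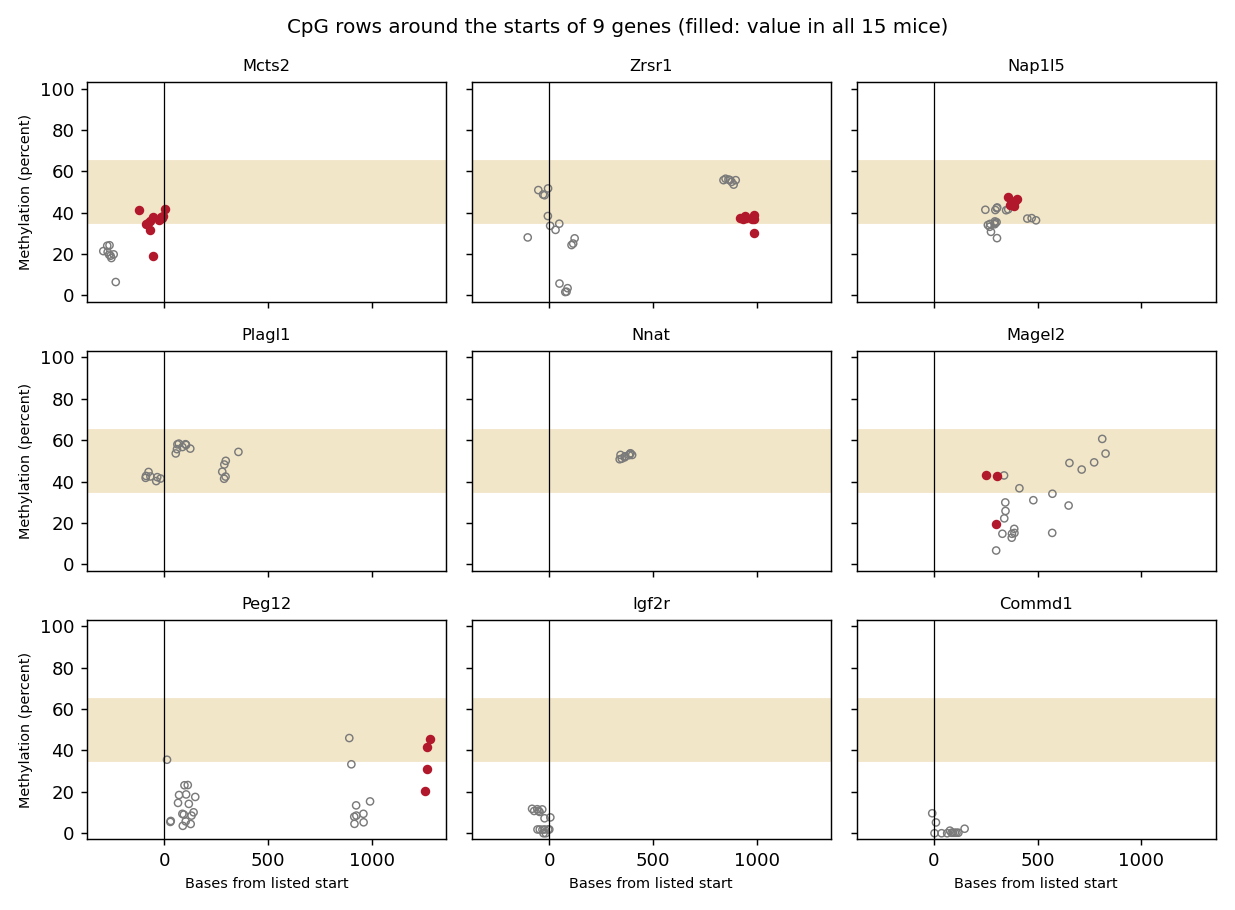
Mean methylation (percent) of CpG rows against their distance in bases from the listed start of 9 genes, with filled points for rows with a value in all 15 mice and the 35 to 65% band shaded; for Commd1 the outer start is used. Rows lie in or near the band at Mcts2, Nap1l5, Plagl1 and Nnat, and Igf2r (5.78% in its promoter window) and Commd1 stay low.

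Among single genes with promoter imprints, Gnas encodes the stimulatory G protein subunit that couples receptors to cyclic AMP, with several alternative first exons of which some are imprinted. It had 73 rows, of which 25 were near 50%. A window of 3 complete sites at 174296643 to 174296681 on chromosome 2, in the part of the locus with the Gnasxl and Nespas starts, averaged 39.9%. The standard mice read 48.0%, 36.1%, 38.7%, 30.7% and 41.8%, the enriched mice 55%, 34.0%, 36.9%, 36.6% and 38.9%, and the withdrawal mice 46.3%, 44.2%, 30%, 50% and 31.8%. With an SD of 7.45 points it had the narrowest spread of the 8 windows. About 3 kb on, 4 sites at 174300051 to 174300115 averaged 62.2% and spread much more widely.

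At that second Gnas window the standard mice read 100%, 75.3%, 68.0%, 50.1% and 82.6%, the enriched mice 65.7%, 71.8%, 71.2%, 30% and 46.9%, and the withdrawal mice 53.1%, 68.8%, 38.3%, 58.3% and 53.5%. Standard mouse 1, fully methylated there, was also the mouse with the fewest member rows. The third window held 10 sites at 174328355 to 174328781, near exon 1A, and averaged 37.3%. In the standard mice it read 29.2%, 27.7%, 37.0%, 49.7% and 31.4%, in the enriched mice 66.1%, 37.4%, 11.1%, 43.6% and 14.2%, and in the withdrawal mice 34.2%, 37.0%, 50.8%, 41.7% and 48.0%. The enriched mice held both its lowest and its highest value, and these came mainly from plus-strand sites. At 174328738 (plus strand) the SD over the 15 mice was 20.4 points, with enriched mouse 1 at 75.3% and enriched mouse 3 at 0%. At 174328355 (minus strand) the SD was 6.61 points, and the same mice read 42.7% and 28.0%. The 10 rows at 174330275 to 174330348, beside the start of the main transcript, averaged 1.34% in 12 mice.

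Several known control regions had no window of 3 complete sites but had rows near 50% in part of the mice. Plagl1, a zinc finger gene that restrains growth, had 23 of 27 rows at 35 to 65%, the highest share of the 47 genes. Its 15 rows at 13090742 to 13090957, which start in the printed promoter, averaged 52.9% with an SD of 21.1 points over 14 mice (lowest 22.0%, highest 98.2%). Grb10, an adaptor that dampens insulin signalling, averaged 48.5% over 16 rows at 12026185 to 12026881 (SD 18.7 points, 15 mice, 14.0% to 80%). At the Grb10 start printed above, 39 rows averaged 2.20%. Nnat, a neuronal membrane protein gene expressed from the paternal copy, averaged 52.5% over 9 rows at 157560418 to 157560478 in 14 mice, with single rows at 50.8 to 53.7%. At Nnat 3 enriched mice were listed at 100% and withdrawal mouse 3 at 4.02%. The rows of this window thus lay close together in their means while the mice lay far apart.

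Zdbf2, a zinc finger gene expressed from the paternal copy in the brain, had a near-50% window of 3 sites at 63226338 to 63226362 on chromosome 1, with a mean of 62.6%. The standard mice read 58.9%, 54.0%, 66.1%, 63.9% and 63.2%, the enriched mice 49.8%, 44.9%, 54.9%, 64.1% and 79.0%, and the withdrawal mice 75.2%, 61.7%, 75.1%, 64.3% and 64.3%. All mice lay between 44.9% and 79.0% and the groups overlapped. Its listed promoter averaged 3.63% over 14 rows. Among the other genes of this role, Slc38a4 (an amino acid transporter) had 6 of 32 rows near 50%, Rasgrf1 (a Ras activator of neurons) had 3 of 30, and Impact (a regulator of translation control) had none of 19.

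In the Snrpn cluster, the region of the mouse matching the human Prader-Willi and Angelman locus, Magel2 encodes a regulator of endosomal protein recycling and is expressed from the paternal copy. Its 3 sites at 62377231 to 62377281 on chromosome 7 averaged 35%. The standard mice read 63.3%, 44.3%, 14.5%, 32.5% and 15.2%, the enriched mice 65.5%, 22.2%, 30.4%, 27.8% and 22.2%, and the withdrawal mice 28.7%, 32.0%, 60.2%, 25.4% and 41.2%. Each group had a single mouse above 60% and its other mice under 45%. Magel2 had 9 of 23 rows near 50%, Peg12 4 of 30, Snrpn 2 of 21, Ndn 1 of 5, Mkrn3 1 of 7 and Ube3a, a ubiquitin ligase gene, none of 10. Just inside the Snrpn start 4 rows averaged 32.2% in 13 mice.

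The 14 genes of clusters with a long noncoding RNA held 20 of 224 distinct rows near 50% (8.93%), beside 7% of all rows. The share was 27.1% of 273 rows for the nested genes and their hosts, 28.3% of 360 for the single genes with promoter imprints and 17.7% of 96 for the Snrpn cluster. Kcnq1 had 6 of 52 rows near 50% and Rian 2 of 7. The Igf2r promoter, printed above, is that of the receptor that clears insulin-like growth factor 2, and the means of single mice over these 16 rows ran from 0% to 30%. The listed promoter window of Airn, which overlaps Igf2r, held no row. H19, an RNA gene at the Igf2 cluster, had no row near 50% among 6. For 3 rows about 3 kb beyond its gene the mean was 14.1% in 14 mice, and 2 mice reached 43.8% and 50%. Igf2, a growth factor gene, had 2 of 32 rows near 50%, and Cdkn1c, a cell cycle inhibitor gene, had 6 of 15.

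Kcnq1ot1, the antisense RNA gene of the Kcnq1 cluster, had 4 rows near its start at 143295469 to 143295508 with a mean of 10.9% in 14 mice. The standard mice with values read 2.42%, 0%, 0% and 0%, the enriched mice 43.6%, 40.6%, 0%, 0% and 45.8%, and the withdrawal mice 0.568%, 4.37%, 5.56%, 1.52% and 7.81%. Thus 3 enriched mice stood above 40% and each other mouse under 8%. These rows were not complete, and a test that also took incomplete sites called no member site either. At the Dlk1 and Meg3 cluster, the 8 rows of the Meg3 promoter, none complete, averaged 7.87% in 14 mice. The standard mice read 92.5%, 0%, 0%, 21.8% and 23.9%. The enriched mice read 0 to 2.52%, and the withdrawal mice with values 0 to 4.35%. Rtl1, a gene of retrotransposon origin, was mostly methylated, with 19 of 24 rows over 80%.

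The Peg3 cluster had 4 of 70 rows near 50% (5.71%) and the clusters of proximal chromosome 6 had 6 of 106 (5.66%). In the first, all 5 rows of Peg3, a zinc finger gene, and 23 of 39 rows of Usp29 were over 80%. The listed promoter windows of Peg3 and Usp29 held no row, so the level at their starts is unknown. On chromosome 6, 14 rows at 4747355 to 4747490, where Peg10 and Sgce start back to back, averaged 34.2% (SD 22.6 points, 15 mice, 0% to 73.5%), with rows from 28.7 to 41.3%. Calcr, Asb4, Copg2 and Klf14 had all of their 18, 21, 12 and 17 rows under 20%. Mest had 2 rows, both over 80%, and none in its listed promoter windows.

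The spread between mice was then compared with other windows near 50%. Over the 15 mice the 8 member windows had a median SD of 15.3 points (7.45 to 21.9), beside a median of 11.9 points (quartiles 9.02 and 15.2) for all 1254 windows near 50% and 11.9 points for the 87 on the X chromosome. The Zrsr1 and Nap1l5 windows were wider than 96.8% and 95.9% of these 1254 windows, while the first Gnas window was wider than 14.0% of them. By group, their median SD was 16.1 points (standard), 18.2 (enriched) and 9.99 (withdrawal), beside 11.5, 11.2 and 9.56 points for all windows near 50%.

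**Figure D3:**
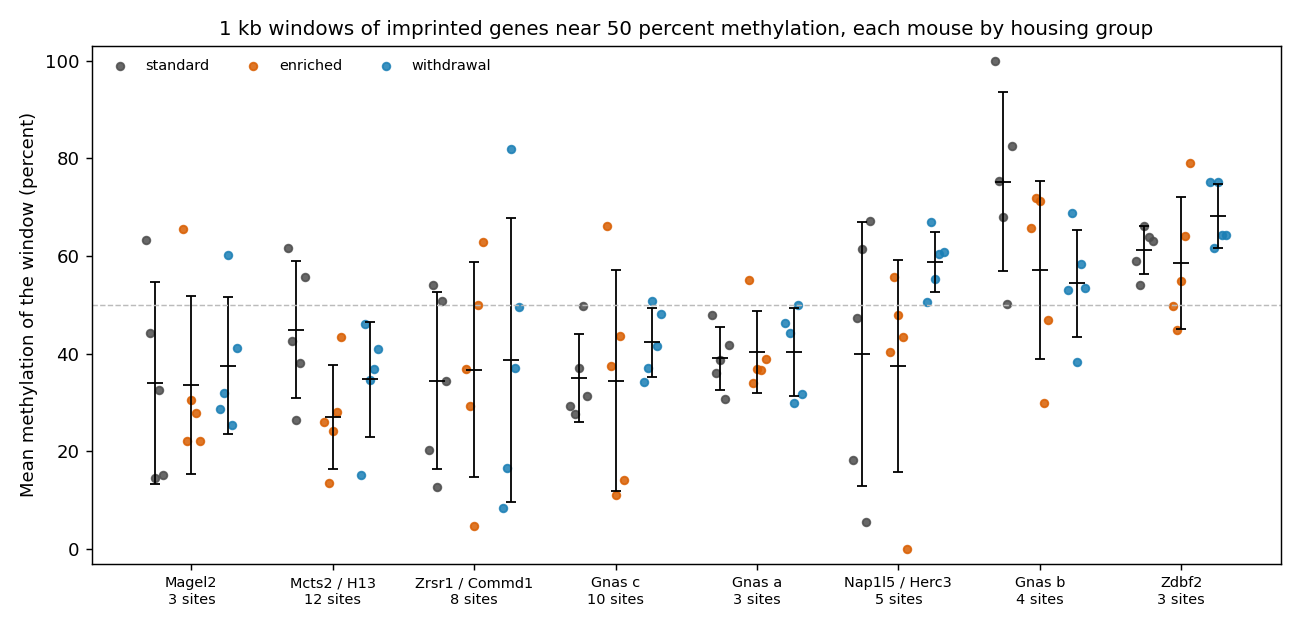
Mean methylation (percent) of the 8 windows of imprinted genes near 50%, with a point for each mouse in its housing group and bars for the group mean and SD (n = 5); Gnas a, b and c are the windows from 174296643, 174300051 and 174328355. The groups overlap in each window, and single mice reach 0% at Nap1l5 and 100% at Gnas b.

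**Figure D4:**
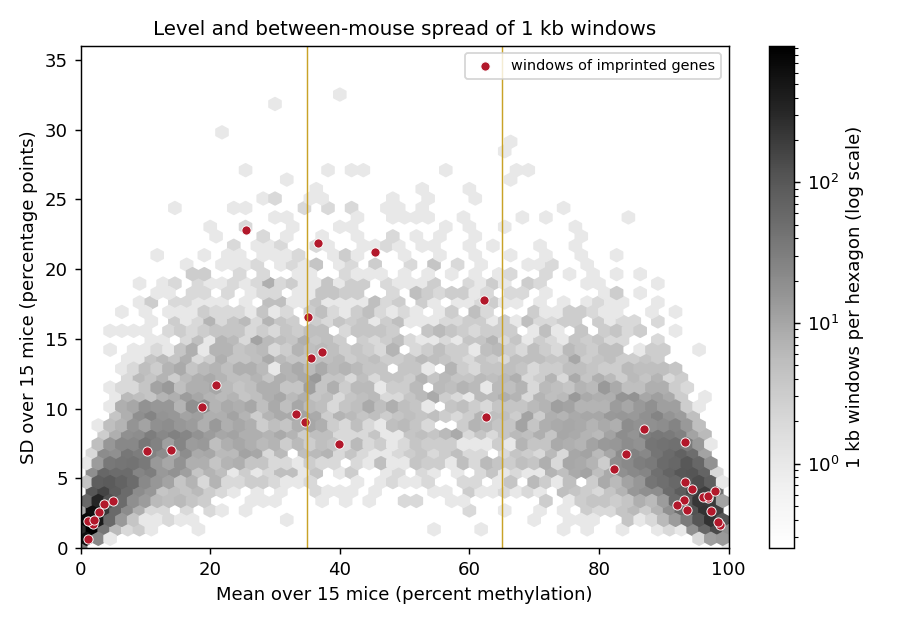
SD over 15 mice (percentage points) against mean methylation (percent) for 15677 windows of 1 kb, shaded by their number per hexagon on a log scale, with the 39 windows of imprinted genes in red and lines at 35 and 65%. Member windows near the ends of the scale spread little, and near 50% they run from 7.45 to 21.9 points.

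A further measure asked whether the sites of a window moved together. The variance of the site values was divided into a part between mice and the rest, and the share between mice was 78.2% (median) in the 8 member windows, 46.7% in all 1254 and 50.8% on the X chromosome. It was 95.7% in the second Gnas window and 94.4% at Nap1l5, above 99.7% and 99.5% of the windows near 50%. At Zrsr1 it was 82.8%, at Magel2 73.6%, at Zdbf2 56.5% and at Mcts2 47.7%. The share also depends on the number of sites, since fewer sites give a higher share even where sites vary independently. Mcts2 held 12 sites and all windows near 50% a median of 3, so its 47.7% and their 46.7% are not directly comparable. Sites of a window can lie on the same sequenced fragments, and the number of reads is unknown, so the part of fragment sampling was not tested. At Zrsr1 the rows of a single CpG differed in spread between strands. The SD over the 15 mice was 25.9 points at 22972993 (minus strand) and 14.7 points at 22972992 (plus strand). Enriched mouse 3 read 0% at the former and 37.2% at the latter. The member windows spanned a median of 58 bases between their first and last site, beside 68 bases overall.

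**Figure D5:**
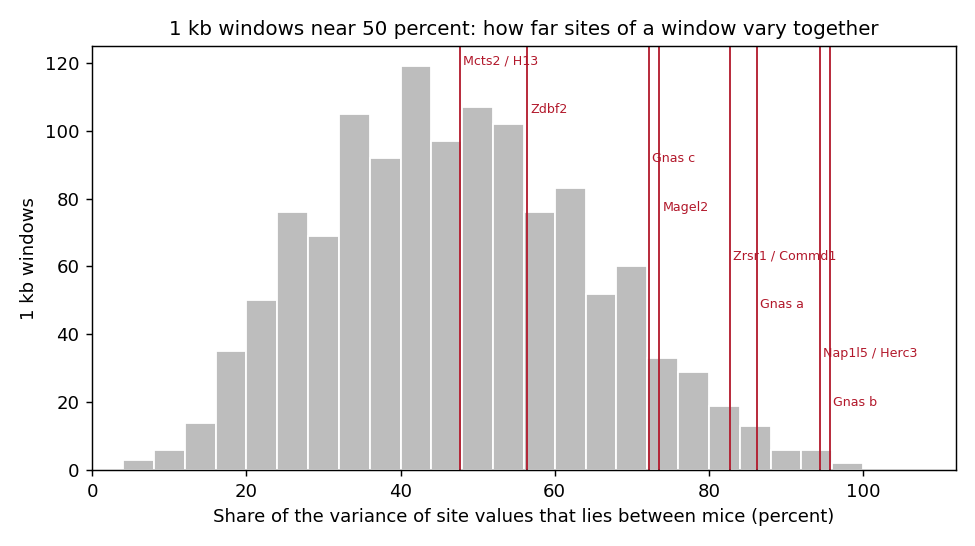
Number of 1 kb windows near 50% by the share of the variance of site values that lies between mice (percent), with red lines for the 8 windows of imprinted genes. Of the red lines, 6 lie at or above 72.2%, and Mcts2, with 12 sites, lies lowest at 47.7%. The share also depends on the number of sites in a window.

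The 3 housing groups were compared by limma on transformed percentages across all features, with p-values adjusted over the whole table. At single sites none of the 228 member sites tested was called between enriched and standard mice at an adjusted p under 0.05, and 0% of all 100562 sites were called. Unadjusted limma p-values under 0.05 were found for 17 member sites (6 higher in enriched mice and 11 lower), where 5.15% of all sites had such a p (2.7% higher and 2.45% lower). For withdrawal against standard mice 0 member sites were called (0% of all sites), and 9 had an unadjusted p under 0.05 (5 higher, 4 lower), with 4.42% overall (2.47% higher, 1.95% lower). For withdrawal against enriched mice 0 were called (0% of all sites), and 2 had an unadjusted p under 0.05 (1 higher, 1 lower), with 4.3% overall (2.32% higher, 1.98% lower). These counts are unstable: with each mouse left out in turn they ran from 12 to 18, from 7 to 15 and from 2 to 15. The 3 comparisons share groups and are not independent. Neighbouring sites are not independent observations either. At Mcts2, both 152687095 and 152687142 (minus strand) read 80.6% in standard mouse 1 and 9.09% in enriched mouse 1.

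Over the 39 member windows limma called 0 in each comparison, with 0% of all 15677 called. Unadjusted p-values under 0.05 were seen for 5, 2 and 2 member windows (enriched against standard, withdrawal against standard, withdrawal against enriched), where the overall shares were 5.71%, 4.8% and 4.39%. Over the 33 member gene regions, which pool the complete sites of a gene and its flanks, limma again called 0 (0% of all 14058 regions). Here 4, 0 and 3 had an unadjusted p under 0.05, with 5.68%, 5% and 4.43% overall. These regions are not all distinct. The 4 include both Mcts2 and its host H13, whose 19 sites hold the 12 of Mcts2. Commd1 and Zrsr1 share all 8 of their sites. The smallest adjusted limma p of any member was 0.756 (enriched against standard, gene regions). In simulated data for enriched against standard mice, limma found 0 of 200 sites, 136 of 200 windows and 197 of 200 gene regions changed by 40 points, and 0, 0 and 134 changed by 20 points. With 5 mice per group, simulated differences were thus not detectable at sites for 20 or 40 points, nor at windows for 20 points. The 0 calls at sites therefore do not exclude differences of that size. False calls numbered 10 for windows and 19 for gene regions at 40 points, and 7 for gene regions at 20 points.

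The median difference over member windows was -0.48 points for enriched minus standard mice (0.06 over all windows), 0.30 for withdrawal minus standard (0.23 overall) and 0.89 for withdrawal minus enriched (0.17 overall). No member window near 50% had groups that did not overlap. Among all 39 member windows there was 1, at 73061096 to 73061135 on chromosome 15 at an end of Trappc9, in withdrawal against standard mice, where 0.804% of all windows did not overlap. It read 1.5% ± 0.66 in standard and 0.704% ± 0.15 in withdrawal mice (SD, n = 5 each). The other comparisons had 0 such member windows, beside 0.689% of all windows for enriched and standard mice and 0.651% for withdrawal and enriched mice.

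Between enriched and standard mice the gene regions with the smallest p were those of Calcr and Mcts2. Calcr encodes the calcitonin receptor, and its 7 complete sites at 3764485 to 3764587 on chromosome 6 lie in a window 177 bases downstream of a listed start. The standard mice read 1.16%, 9.20%, 4.43%, 3.43% and 11.2%, the enriched mice 23.7%, 22.9%, 12.5%, 5.36% and 17.9%, and the withdrawal mice 6.82%, 5.60%, 5.68%, 7.80% and 14.9%. In enriched mice 4 of 5 lay above all standard mice, and the withdrawal mice lay mostly among the standard mice. The difference was 10.6 points (limma adjusted p = 0.756 as a gene region and 0.788 as a window), and the withdrawal minus enriched difference was -8.30 points (limma adjusted p = 0.994).

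For the Mcts2 region, whose values per mouse stand above, the enriched minus standard difference was -17.8 points with a limma adjusted p of 0.860. Its most different site, 152687142 on the minus strand, read 53.6% ± 22.7 in standard and 21.2% ± 18.9 in enriched mice (SD, n = 5 each; limma adjusted p = 0.912), and the withdrawal mice ran from 21.7 to 59.5%. The strands of a CpG differed here. Standard and enriched means were 51.4% and 21.0% at 152687078 (minus strand), but 36.8% and 30.8% at 152687077 (plus strand). They were 52.0% and 21.4% at 152687095 (minus strand), but 14.6% and 18.5% at 152687094 (plus strand). The -17.8 points thus came mainly from minus-strand rows. In the Gnas window near 174316904, which was almost fully methylated, standard mice averaged 97.6%, enriched mice 92.6% and withdrawal mice 98.1%, and limma gave adjusted p-values of 0.808 (enriched against standard) and 0.999 (withdrawal against enriched). A Rasgrf1 site at 89909130 was at 0% in all 5 enriched mice and at 6.99% ± 6.69 in standard mice.

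Between withdrawal and standard mice the second Gnas window had a difference of -20.8 points (limma adjusted p = 0.995), and 4 of its 5 standard mice lay above 4 of the 5 withdrawal mice. The H13 site at 152666704, on the plus strand and upstream of the gene, read 57.1%, 0%, 52.0%, 25% and 43.6% for the standard group, 89.5%, 53.8%, 64.7%, 56.4% and 55.9% for the enriched group and 88.2%, 78.7%, 56.6%, 60.7% and 75.6% for the withdrawal group. Withdrawal mice all lay above 4 of the standard mice, with a difference of 36.4 points (limma adjusted p = 0.961). At an Inpp5f site, 128648847, all 5 standard mice read 100% and the withdrawal mice averaged 92.3% ± 6.19 (limma adjusted p = 0.961). A Zdbf2 site at 63200522 was at 100% in all 5 withdrawal mice and at 86.5% ± 17.6 in standard mice, with a difference of 13.5 points, or 5.80 points without standard mouse 5.

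The gene regions with the smallest p in that comparison were Peg13 and Rian, a noncoding RNA gene of the Meg3 cluster. Peg13 had a withdrawal minus standard difference of -17.0 points (limma adjusted p = 0.988), with 66.4%, 39.5%, 45.1%, 31.0% and 46.9% in standard and 37.5%, 31.9%, 34.6%, 22.0% and 17.8% in withdrawal mice. Rian had a difference of 11.7 points (limma adjusted p = 0.988), from 14.4% ± 7.16 to 26.1% ± 9.61 (SD, n = 5 each). Both genes had overlapping groups.

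Between withdrawal and enriched mice a Kcnq1 site at 143412771 read 98.8% ± 2.68 and 73.1% ± 19.8 (SD, n = 5 each; limma adjusted p = 0.976). Kcnq1 encodes a potassium channel subunit. The Slc38a4 region, 3 sites at 97008864 to 97008925 on chromosome 15, read 88.8% ± 10.6 in withdrawal and 98.6% ± 2.41 in enriched mice, a difference of -9.75 points (limma adjusted p = 0.994), or -5.87 points without withdrawal mouse 3. At the Slc38a4 site 97008916 that mouse alone read 20%, and the difference there of -22.7 points became -8.42 without it.

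Related genes outside the 47 were read in the same way, though the sites of Blcap and Zim3 are also member sites (Nnat and Usp29). Of 25 neighbours in imprinted clusters 14 gene regions were tested, and limma called 0 in each comparison (0% of all 14058 regions). Their unadjusted limma p was under 0.05 for none, for Kcnk9 and for Ddc in turn. Over all gene regions 5.68%, 5% and 4.43% had such a p in these comparisons. Of 10 genes for factors that set or keep imprinted methylation, 4 were tested (Dnmt3a, Dppa3, Ctcf and Zfp445) and limma called 0. Dppa3, which protects maternal methylation in the zygote, averaged 45.2% over its complete sites. Its unadjusted limma p was under 0.05 in both comparisons with the enriched mice, and the smallest adjusted limma p of this list was 0.753.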

How the data were processed

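Per the labels, RRBS libraries were made from dentate gyrus DNA of 15 mice, 5 in each of 3 groups taken from the housing labels. The deposited table holds percent methylation per cytosine and strand, made by the authors with Trim Galore 0.4.0, cutadapt 1.8.1, Bismark 0.16.1 and methylKit 1.5.2 on mm10, per the submitters' processing notes. The table gives no read counts. In every group a row has values from 3 mice or more. The first run through the chromosomes was taken as CpG, and 47250 of 47250 of its rows inside promoter windows lay on a CG. The 2 strands of a CpG were kept as separate rows.

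Means per row are over mice with a value, and windows and gene regions average at least 3 complete sites. The main test was limma 3.58.1 (R 4.3.3) on log2((percent + 5)/(100 - percent + 5)) with a trended variance, fitted to all 15 mice, two-sided, Benjamini-Hochberg over all features of a level. Sites needed a range of at least 5 points. The test was checked on simulated data. No label says how the mice were housed within a group. The p-values set group differences against the spread between these mice, taken as independent. If mice of a group shared a cage, effects of cage and of housing cannot be told apart.

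Named were all windows with a mean of 35 to 65%, the 3 sites, 2 windows and 2 gene regions with the smallest p in each comparison, and genes with known germline control regions. The members and lists were chosen with earlier results of these data known. Alternatives were the offset (1 for 5), the range and completeness filters, the 35 to 65% limits (40 to 60%), the number of sites, a replicate block and leaving out each mouse.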

Additional observations from a re-analysis of the deposited data

Results flagged for a closer look

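In groups of 5 mice, a mouse was singled out when its gap to the nearest of the other 4 exceeded 0.71 of the group's range, Dixon's 95% limit. Of 57 groups in 19 windows 7 met this, where chance gives about 1 in 20 for normally distributed values. That rate does not apply to groups with mice at exactly 100%, as at Inpp5f and Slc38a4, where any small departure stands apart. At Nap1l5 and Herc3 enriched mouse 5 read 0%, against 40.3 to 55.7% in the other enriched mice. Enriched mouse 1 stood apart in 4 windows. It read 65.5% at Magel2 (others 22.2 to 30.4%), 55% at the first Gnas window (others 34.0 to 38.9%), 94.4% at Slc38a4 (others 98.5 to 100%) and 96.7% at Inpp5f (others 99.4 to 100%). Standard mouse 3 read 97.2% at the Inpp5f window, where the other standard mice read 100%. Withdrawal mouse 5 read 14.9% at Calcr, against 5.60 to 7.80% in the other withdrawal mice.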

How the results depend on the processing

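The count of 8 member windows near 50% became 1 with limits of 40 to 60%, 4 with at least 5 complete sites and 23 with every row used, and it ran from 6 to 9 when each mouse was left out. Their median SD of 15.3 points became 21.2 points with limits of 40 to 60%, and 12.9 to 17.2 points when each mouse was left out. Leaving out each mouse changed no member call: 0 member sites, windows or gene regions were called in any comparison. No member passed an adjusted p of 0.05 under any other setting run, and the smallest adjusted p of a named difference was 0.587. Over all features, where the main test called 0, other settings called up to 11 sites (withdrawal against standard, without withdrawal mouse 3), 1 window and 5 gene regions (enriched against standard, without standard mouse 3), none of them a member. With incomplete sites taken in, 53, 41 and 54 of 955 member sites (5.55%, 4.29% and 5.65%) had an unadjusted p under 0.05, beside 4.67%, 4.30% and 4.18% of all 350663 sites. When each mouse was left out, member windows with such a p numbered 2 to 5, 0 to 3 and 1 to 5 in the 3 comparisons, and gene regions 1 to 5, 0 to 1 and 0 to 4. With all 15 mice such a p was found for 5.71%, 4.8% and 4.39% of all windows. For all gene regions it was 5.68%, 5% and 4.43%. All 413 alternative values of the 21 named differences kept their direction. These differences were picked by their small p in the same mice, and most alternatives left out a single mouse. A turn was therefore unlikely, and the kept direction is not separate support. Replicate numbers do not pair the mice, judged by transformed site values after the group mean of each site was subtracted. On these values same-numbered mice had correlations of -0.01 to 0.01 over 15 pairs, and 1 of 15 mice was closest to its own number. With a replicate block, 0 members were called, and 18, 8 and 4 of 228 member sites (7.89%, 3.51% and 1.75%) had an unadjusted p under 0.05 in the 3 comparisons, beside 5.23%, 4.48% and 4.40% of all sites. Without read counts, no coverage minimum could be set, and no interval for counting error could be given.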

Other observations

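Outside the CpG rows, the second run of the table holds cytosines in other contexts. Of these, 5610 rows lay in the 47 imprinted genes and averaged 0.793%, beside 0.822% over all 2462278 rows. At 5% or more stood 149 member rows (2.66%), beside 2.71% of all such rows, and 14 member rows (0.250%) were over 20%, beside 4583 of all such rows (0.186%).

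Neighbouring genes of the imprinted clusters covered a wide range of levels over their complete sites. The gene regions of Ddc (next to Grb10), Begain, Ppp1r9a and Slc22a3 averaged 36.7%, 57.7%, 53.9% and 60.5%, and those of Nap1l4, Blcap and Pon2 averaged 0.791%, 1.90% and 3.54%. The 7 sites of Blcap are those of a member window in the flank of Nnat, so they are not separate values. Ppp1r9a had an SD of 2.39 points over the 15 mice and Begain 8.13 points. A mean near 50% over a gene region can also come from a mixture of high and low sites.

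The 54 complete member sites near 50% averaged 46.4% ± 5.16 over the standard mice, 41.1% ± 5.90 over the enriched and 48.1% ± 6.80 over the withdrawal mice (SD, n = 5 each), with ranges of 38.1 to 52.3%, 31.6 to 47.3% and 38.1 to 56.4%. The groups overlapped, and the difference was not tested because the sites were chosen by their level.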
